A study of Mus musculus with 8 samples.

Results

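KRAB zinc-finger gene clusters are long tandem arrays of genes that code for DNA-binding repressor proteins. The regions described here are the H3K9me2 and H3K9me3 ChIP-seq regions whose midpoint lies in 7 windows of mouse build mm10 drawn around such clusters outside chromosome 13. In Mb, the windows run from 174.8 to 178 on chromosome 2, 144.5 to 148 on chromosome 4, 109.6 to 110.9 on chromosome 5, 69 to 73 on chromosome 8, 20 to 22.5 on chromosome 9, 80.8 to 82.5 on chromosome 10 and 20.5 to 23.5 on chromosome 17, which is 19.2 Mb in all. They hold 47 of 1983 H3K9me2 regions and 260 of 14515 H3K9me3 regions, 307 of 16498 together. The rule takes members by position and uses no measured level, but the windows were chosen with earlier results of these data known.

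A protein of this family carries a KRAB domain near its start and an array of C2H2 zinc fingers that read DNA, with most neighbouring fingers joined by a short linker, TGEKP. The KRAB domain recruits the corepressor KAP1 (TRIM28) and with it the H3K9 methyltransferase SETDB1, and many of these proteins are directed at transposable elements. The genes that encode them are themselves known to carry H3K9me3 over their bodies in many cell types. HAT1 is the acetyltransferase that acetylates newly synthesized histone H4.

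The cells were SV40-immortalized MEFs of C57bl6 background, derived from midgestation embryos that were HAT1+/+ (WT) or HAT1-/- (KO), and the labels name no other allele or treatment. All 4 groups, 2 genotypes for each of 2 marks, held 2 libraries from 2 embryos, 8 libraries in all, and each line is an immortalized line rather than primary tissue. Human Dbt immortalized myoblasts were mixed into every sample as a spike-in. The library totals are those recovered from the deposited RPM, and whether they count mouse reads alone or were scaled by the human spike-in is not stated, which holds for each RPM value and share of a library given here. They lay between 4198682 and 8421761 reads and the median count of a member between 24 and 35 reads, so that a single region rests on few reads. Between 4.89% and 9.53% of the reads of an H3K9me2 library, and between 12.01% and 20.4% of those of an H3K9me3 library, fell in regions of the whole table.

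The windows were checked for C2H2 zinc-finger genes in the GENCODE annotation, and KRAB domains were not looked for. They contained 814 genes, of which 438 were protein coding and 74 had a zinc-finger symbol (Zfp, Znf, Zscan, Zkscan or Zik). By the coding sequence itself, 118 genes coded for at least 3 C2H2 fingers, and 122 were C2H2 genes by either definition. The chromosome 4 window held 21 of them among 38 coding genes, the chromosome 2 window 35 among 43, and the chromosome 17 window 23 among 48. The windows on chromosomes 8 and 9 were more mixed, with 13 C2H2 genes among 129 coding genes and 10 among 86. Olfactory or vomeronasal receptor genes made up another 23 coding genes of the chromosome 17 window and 10 of the chromosome 9 window. Unsequenced gaps took 14.1% of the chromosome 2 window and 12.3% of the chromosome 4 window, and no region can be placed there.

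The sequences below, all on the plus strand of mm10 as read from its reference assembly GRCm38.p6, show what kinds of DNA carried the marks. The first 4 are H3K9me3 regions that hold the linker-coding repeat, which is the DNA that names these clusters. Capitals mark the bases that can code for the linker TGEKP with any codons, on either strand. They come from Zfp810 and Zfp872 on chromosome 9, Zfp160 on chromosome 17 and an intron of the lincRNA Gm26573 on chromosome 4, in that order.
chr9:22278645-22278944: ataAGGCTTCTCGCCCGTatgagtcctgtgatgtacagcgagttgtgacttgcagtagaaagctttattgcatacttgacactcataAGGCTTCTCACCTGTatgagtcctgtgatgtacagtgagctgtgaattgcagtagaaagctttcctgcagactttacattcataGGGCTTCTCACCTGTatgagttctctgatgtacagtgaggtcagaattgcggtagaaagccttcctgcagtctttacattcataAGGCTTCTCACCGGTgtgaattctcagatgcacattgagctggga
chr9:22200336-22200596: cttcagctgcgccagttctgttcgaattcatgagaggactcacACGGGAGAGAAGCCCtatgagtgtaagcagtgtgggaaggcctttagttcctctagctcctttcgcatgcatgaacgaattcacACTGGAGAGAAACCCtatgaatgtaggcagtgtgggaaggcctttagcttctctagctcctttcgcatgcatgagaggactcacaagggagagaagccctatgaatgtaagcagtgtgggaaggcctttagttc
chr17:21026066-21026365: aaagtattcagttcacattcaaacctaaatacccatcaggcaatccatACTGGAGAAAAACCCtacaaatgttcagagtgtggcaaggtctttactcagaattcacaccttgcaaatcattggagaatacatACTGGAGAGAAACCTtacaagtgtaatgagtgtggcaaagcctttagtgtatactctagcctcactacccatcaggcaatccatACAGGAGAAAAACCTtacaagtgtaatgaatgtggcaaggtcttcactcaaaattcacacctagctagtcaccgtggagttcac
chr4:146718864-146719163: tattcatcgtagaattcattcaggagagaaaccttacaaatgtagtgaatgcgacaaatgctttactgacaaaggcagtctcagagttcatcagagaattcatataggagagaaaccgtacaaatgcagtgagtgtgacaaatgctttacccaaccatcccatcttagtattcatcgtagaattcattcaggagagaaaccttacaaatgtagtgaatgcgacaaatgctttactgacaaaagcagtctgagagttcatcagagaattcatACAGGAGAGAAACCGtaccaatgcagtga
In the first 3 of these, successive linkers lay 84 bases apart, the length that codes for 1 finger and its linker. Shifted by 84 bases, the Zfp810 sequence matched itself at 86.6% of positions, against a median of 24.8% over all shifts from 10 to 100 bases. The chromosome 4 copy matched at 77.8% and held only 1 intact linker in 300 bases.

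Such DNA was the exception. Only 5 of 260 H3K9me3 members (1.92%) and 0 of 47 H3K9me2 members contained a linker match, compared with 0.358% of all H3K9me3 and 0.151% of all H3K9me2 regions. On chromosome 9 the strongest H3K9me3 region was the linker-holding one of Zfp810 shown first. Over all windows, the region with the highest level of each mark was of another kind, shown by the next 2 sequences. The first is the centre of the H3K9me3 region with the highest level in the windows, chr4:147401190-147402395 in an intron of C230088H06Rik. The second is the centre of the H3K9me2 region with the highest level, chr8:72642770-72643396, which lies between genes.
chr4:147401643-147401942: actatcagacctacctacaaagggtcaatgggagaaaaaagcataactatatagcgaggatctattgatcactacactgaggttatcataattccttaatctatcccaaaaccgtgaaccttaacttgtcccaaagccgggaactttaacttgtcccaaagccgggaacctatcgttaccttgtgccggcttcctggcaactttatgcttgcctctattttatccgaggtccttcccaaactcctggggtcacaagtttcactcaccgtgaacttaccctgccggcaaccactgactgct
chr8:72642933-72643232: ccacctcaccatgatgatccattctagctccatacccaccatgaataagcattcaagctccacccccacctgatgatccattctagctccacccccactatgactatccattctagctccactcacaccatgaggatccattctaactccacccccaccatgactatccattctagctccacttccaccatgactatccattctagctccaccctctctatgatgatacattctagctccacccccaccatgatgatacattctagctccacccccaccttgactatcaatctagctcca
Neither holds a linker match, and no capitals are shown. The chromosome 8 sequence is a short tandem repeat that matched itself at 73.0% of positions when shifted by 30 bases. The H3K9me3 table lists a region of nearly the same extent, chr8:72642790-72643367.

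The last 2 sequences are those of the 2 H3K9me3 members that passed the test between genotypes, described further on. Both are repeated sequence, and they are shown because copy number bears on how their reads could be placed. The first lies in an intron of Gm7697 on chromosome 8 and the second in an intron of C230088H06Rik on chromosome 4.
chr8:69505120-69505419: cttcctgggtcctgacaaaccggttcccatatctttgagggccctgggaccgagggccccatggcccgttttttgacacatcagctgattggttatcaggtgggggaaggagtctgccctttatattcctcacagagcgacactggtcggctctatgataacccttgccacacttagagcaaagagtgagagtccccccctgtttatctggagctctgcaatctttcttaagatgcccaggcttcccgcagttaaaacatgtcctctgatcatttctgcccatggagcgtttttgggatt
chr4:147065987-147066286: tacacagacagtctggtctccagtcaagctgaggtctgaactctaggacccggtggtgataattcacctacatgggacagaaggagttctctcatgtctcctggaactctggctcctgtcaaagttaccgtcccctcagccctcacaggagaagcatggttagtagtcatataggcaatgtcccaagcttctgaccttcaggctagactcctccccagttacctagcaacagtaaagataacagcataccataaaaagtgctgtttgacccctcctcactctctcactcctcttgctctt
All 31-base words of the first region and 85.5% of those of the second occur more than once on the 21 chromosomes, with a median of 129 and 9 copies per word.

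The 7 windows differed widely in how many regions they held. On chromosome 4, 154 H3K9me3 regions gave 44.0 regions per Mb and 28 H3K9me2 regions gave 8.0 per Mb. Over the 21 chromosomes the densities were 5.28 and 0.709 per Mb. The chromosome 17 window held 41 H3K9me3 regions (13.7 per Mb) and 7 H3K9me2 regions (2.33 per Mb). For H3K9me3 the chromosome 10 window followed with 16 regions (9.41 per Mb), while those on chromosome 8 (23 regions, 5.75 per Mb), chromosome 2 (16 regions, 5.0 per Mb), chromosome 5 (4 regions, 3.08 per Mb) and chromosome 9 (6 regions, 2.4 per Mb) were near or below the density of the genome. H3K9me2 was listed in 6 regions on chromosome 8, 3 on chromosome 9, 2 on chromosome 5, 1 on chromosome 2 and 0 on chromosome 10. A window rich in C2H2 genes was thus not always rich in regions, as the chromosome 2 window, with the most C2H2 genes, held 17 regions of both marks.

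**Figure D1:**
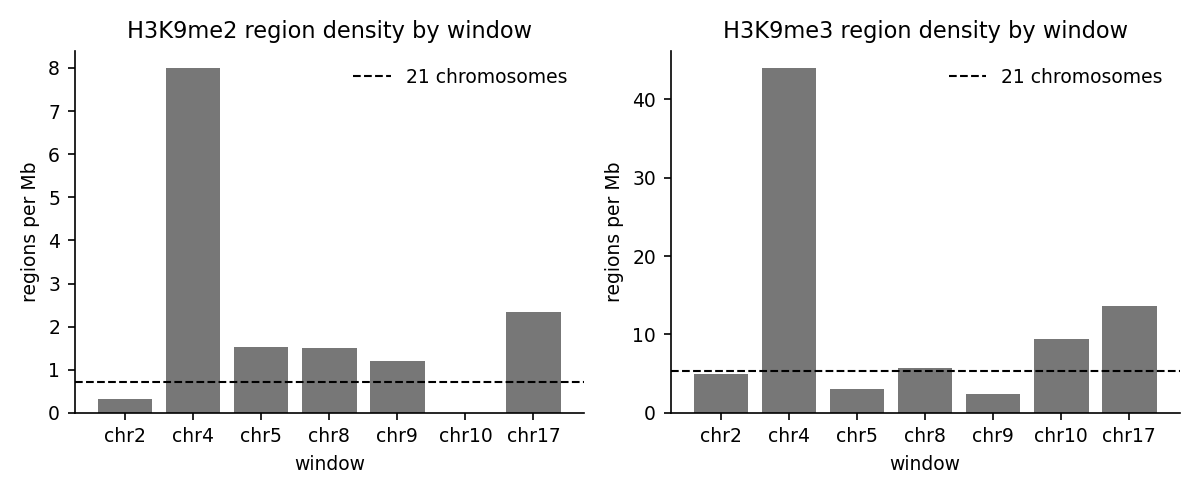
Bars give the number of deposited regions per Mb in each of the 7 windows, H3K9me2 on the left and H3K9me3 on the right, and the dashed line gives the density over the 21 chromosomes (0.709 and 5.28 per Mb). The chromosome 4 window stands above the other 6 in both marks, at 8.0 and 44.0 regions per Mb, and the chromosome 10 window holds no H3K9me2 region.

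Chromosome 4 regions lay close together and were broad for this table. Neighbouring H3K9me3 regions there were a median of 7.91 kb apart, against 53.8 kb on chromosome 17 and 58.6 kb on chromosome 2. Their median width was 375 bp, and 76 of 154 (49.4%) joined 2 or more peak summits, compared with 289 bp and 13.2% over all H3K9me3 regions. The median level of a chromosome 4 member was 8.13 RPM (the deposited value, a region's read count plus 1, scaled to the reads of the library) for H3K9me3 and 5.09 RPM for H3K9me2, and over all regions it was 3.46 and 2.88 RPM.

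Members lay mostly in introns and between genes. Of the 260 H3K9me3 members, 138 were intronic, 80 intergenic, 26 in noncoding exons, 9 in coding exons and 7 in untranslated exons. Of the 47 H3K9me2 members, 24 were intronic and 16 intergenic. C2H2 genes recognised by symbol were overlapped by 61 H3K9me3 members (23.5%) and 6 H3K9me2 members (12.8%), and over all regions by 0.909% and 0.756%. The windows were drawn around clusters of such genes, so a share above that of all regions is built into their choice. With C2H2 genes defined by coding sequence the counts were 75 and 7. Exons of C2H2 genes were reached by 10 H3K9me3 members (3.85%) and 1 H3K9me2 member (2.13%), and over all regions by 0.331% and 0.202%. Their coding exons were reached by 6 and 0 members. Within the gene, H3K9me3 members lay more often toward its end than toward its start. Cut into 4 equal lengths from start to end, the gene body held 13, 15, 22 and 26 of 76 pairs of a member and a C2H2 gene. For H3K9me3 regions outside the windows the 4 lengths held 15, 28, 19 and 35 of 97 pairs. Within 1 kb of the start of a C2H2 gene lay 9 of the 260 H3K9me3 members, and 8 of the 14255 H3K9me3 regions outside the windows.

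In all, 34 of the 122 C2H2 genes carried at least 1 H3K9me3 region and 7 carried an H3K9me2 region. The chromosome 4 window held 16 of the 34 and all of the 7. On chromosome 10 there were 7, on chromosome 17 there were 6, on chromosomes 2 and 9 there were 2 each, on chromosome 8 there was 1, and on chromosome 5 there were 0. The gene with the most H3K9me3 regions in its window was Zfp984 on chromosome 4 (5 regions, as many as Zfp980 but with more reads), and, with 2 regions each, Zfp781 on chromosome 10, Zfp160 on chromosome 17, Zfp872 on chromosome 9, D130040H23Rik on chromosome 8 and Gm14401 on chromosome 2. Ties were settled by reads, and Zfp781 counts as a C2H2 gene by its symbol only, its annotated coding sequence giving 0 fingers. For H3K9me2 it was Zfp978 on chromosome 4, with 1 region. The largest numbers of regions fell in 2 long noncoding loci on chromosome 4 that span many of the C2H2 genes. C230088H06Rik, 474 kb long, overlapped 43 H3K9me3 and 13 H3K9me2 regions, and Gm26573, 872 kb long, overlapped 32 and 7. Both run on the minus strand, and ChIP-seq reads cannot tell which of 2 overlapping genes a mark belongs to.

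Copies of the same sequence were common in the members. In 159 of 260 H3K9me3 members (61.2%) over 50% of the 31-base words occurred more than once on the 21 chromosomes, and in 4629 of all 14515 H3K9me3 regions (31.9%). The count was 115 of 154 on chromosome 4, 13 of 16 on chromosome 2, 9 of 16 on chromosome 10, 6 of 41 on chromosome 17 and 0 of 6 on chromosome 9. How reads that match several copies were placed is not given in the sources used here. Levels in such members may be shared between near-identical copies and are uncertain. The bases that the reference marks as repeats were fewer, with a median of 44.5% of bases soft-masked in H3K9me3 members and 70.7% in all H3K9me3 regions.

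The 2 marks met at the same places on chromosome 4. There 27 of 28 H3K9me2 regions overlapped an H3K9me3 region, on chromosome 8 it was 4 of 6, on chromosome 17 it was 4 of 7, and on chromosomes 2, 5 and 9 it was 0 of 6 together. Over the windows this made 35 of 47 (74.5%), and over all H3K9me2 regions 40.1%. In the other direction, 35 of 260 H3K9me3 members (13.5%) overlapped an H3K9me2 region, against 5.43% of all.

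The next question was whether the marks in these clusters differed between HAT1-/- and HAT1+/+ MEFs, and the answer depended on how libraries were scaled. Per library total, the reads in member regions were more frequent in KO for both marks. Sums over regions are also given in RPM, here without the added read. H3K9me2 reads in the windows came to 384 and 377 RPM in the KO libraries and to 212 and 225 RPM in the WT libraries. The group means were 380.5 ± 5.23 (SD, n = 2) and 218 ± 9.48 (SD, n = 2) RPM, a ratio of 1.74. H3K9me3 reads came to 2265 and 2556 RPM in KO (95% Wilson intervals 2220 to 2311 and 2510 to 2602) and to 1855 and 2041 RPM in WT (1821 to 1891 and 2004 to 2078). The means were 2410 ± 206 (SD, n = 2) and 1948 ± 131 (SD, n = 2) RPM, a ratio of 1.24. In each mark the KO libraries both exceeded the WT libraries. Outside the windows the same ratios were 1.58 for H3K9me2 and 1.57 for H3K9me3, so that H3K9me3 in the clusters was higher in KO by less than in the rest of the table.

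Chromosome 4, with most of the H3K9me3 reads, had a ratio below that of the windows together. In that window KO libraries held 1625 and 1864 RPM and WT libraries 1429 and 1624 RPM, a ratio of 1.14, and KO library 1 and WT library 2 were nearly equal. The other 6 windows together held 640.0 and 692 RPM in KO and 427 and 417 RPM in WT, a ratio of 1.58, where the sums outside the windows gave 1.57. Region by region they were not alike, with a median log2 difference on library totals of 0.71 in these 6 windows and of 1.01 outside. Among them the ratio was 1.82 on chromosome 8, 1.75 on chromosome 2, 1.69 on chromosome 9, 1.54 on chromosome 17 and 1.25 on chromosome 10, and the genotypes did not overlap. On chromosome 5, with 4 regions, KO libraries held 14.3 and 24.5 RPM and WT libraries 22.2 and 14.2, a ratio of 1.06, the lowest of the 7, and the genotypes overlapped.

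For H3K9me2 the chromosome 4 window held 180 and 175 RPM in KO and 106 and 130 RPM in WT, a ratio of 1.503. The chromosome 8 window held 140.3 and 139.8 RPM in KO and 70.8 and 68.5 in WT, a ratio of 2.01. On chromosome 17 the KO libraries held 36.9 and 43.9 RPM and the WT libraries 21.3 and 17.2, a ratio of 2.1. On chromosomes 5 and 9, with 2 and 3 regions, the ratios were 2.103 and 2.65. The genotypes did not overlap in any of these 5 windows, while in the single chromosome 2 region they did. With 2 libraries against 2 no exact permutation test can fall below 0.333, and the p-values given for single regions below measure the spread between cultures from 2 embryos per genotype.

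**Figure D2:**
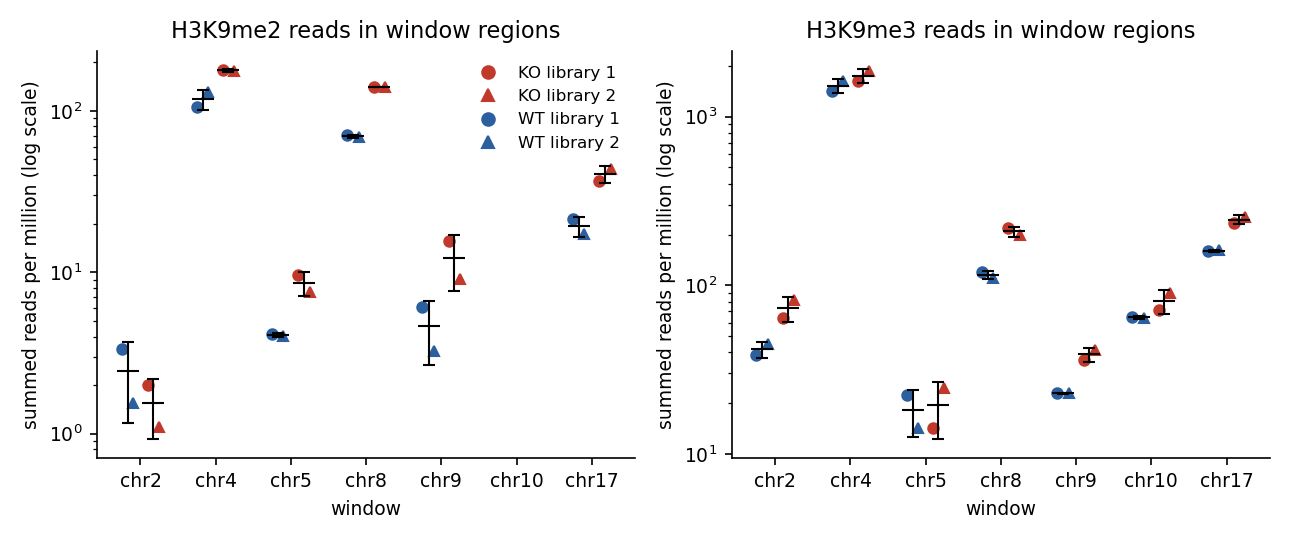
Points give the reads that fell in member regions of each window as RPM of the library total (log scale), circles for library 1 and triangles for library 2, blue for WT and red for KO, with the group mean and SD (n = 2) in black. KO libraries sit above WT libraries in most windows in both marks, while on chromosome 4 the H3K9me3 groups almost touch (KO 1625 and 1864, WT 1429 and 1624 RPM).

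A share of the library total keeps a shift common to all regions. TMM scaling, the main scaling used here, instead sets the bulk of regions to little change, with a median log2 difference (KO minus WT, pseudocount 1) of 0.12 over all H3K9me2 and 0.05 over all H3K9me3 regions, and of 0.77 and 1.00 with library totals. On the TMM scale, H3K9me3 members had a median of -0.58 and those on chromosome 4 of -0.76. The direction for H3K9me3 turned with the scaling: with library totals these medians were 0.40 and 0.25, positive but below the 1.00 of all regions. These medians are carried by chromosome 4, which holds 154 of the 260 members. On chromosome 2 they were 0.16 and 1.12, above those of all regions on both scales. Its summed H3K9me3 reads were nonetheless lower in KO with TMM, at 47.0 and 55.3 RPM against 57.3 and 61.0 in WT (log2 ratio -0.21).

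Most members on chromosome 4 lay on the same side. On the TMM scale 146 of its 154 H3K9me3 regions were lower in KO, compared with 6912 of all 14515, and the middle 50% of its regions lay between -1.06 and -0.44. With library totals 100 of the 154 (64.9%) were higher in KO, compared with 85.4% of all H3K9me3 regions. On that scale both KO libraries were above both WT in 104 of the 260 members and below both in 9, and over all H3K9me3 regions in 57.6% and 2.65%. Both KO libraries were below both WT libraries in 105 of 154 regions on the TMM scale, and in 19.1% of all H3K9me3 regions. The other windows were less shifted. Their 106 regions had a median of -0.25, and both KO libraries were below both WT in 34 of them (32.1%). By window the TMM medians were -0.12 on chromosome 8, -0.25 on chromosome 17, -0.31 on chromosome 9, -0.47 on chromosome 10 and -1.12 over the 4 regions of chromosome 5, and on chromosome 2 the median was 0.16, with 10 of 16 regions higher in KO. Both KO libraries were above both WT in 10 of the 260 H3K9me3 members and in 17.3% of all H3K9me3 regions. Of those 10, 4 lay on chromosome 8, 3 on chromosome 2 and 1 each on chromosomes 4, 5 and 17. On chromosome 2 both KO libraries were below both WT in 4 of the 16 regions with TMM.

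H3K9me2 values differed from those of H3K9me3. The 47 H3K9me2 members had a TMM median of 0.20, against 0.12 over all regions, and with library totals of 0.88 against 0.77. Which of the TMM medians was the higher rested on single libraries. Without WT library 1 the members were at 0.14 and all regions at 0.20, and without WT library 2 at 0.14 and 0.21. Without KO library 1 they were at 0.12 and -0.08, and without KO library 2 at 0.06 and -0.10. On chromosome 4 the H3K9me2 median was -0.06 with 17 of 28 regions lower, and in the other windows it was 0.44 with 17 of 19 higher. Both KO libraries were above both WT in 12 of 47 members (25.5%) on the TMM scale, 5 of them among the 6 regions on chromosome 8, and in 19.9% of all H3K9me2 regions. They were below both WT in 3 members, against 16.7% of all. With library totals they were above in 27 of 47 and below in 0, against 45.5% and 3.98% of all. At 35 places in the windows an H3K9me2 and an H3K9me3 region overlapped. The H3K9me2 difference was the more positive in 30 of them on the TMM scale and in 24 with library totals. Of the 35, 27 lay on chromosome 4, where it was so in 24 and in 20. The share over all such places in the genome is not given here. Over the 35 places the medians were 0.11 for H3K9me2 and -0.63 for H3K9me3 (TMM), and 0.75 and 0.37 with library totals. The marks were scaled and counted separately, and the difference between them was not tested.

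**Figure D3:**
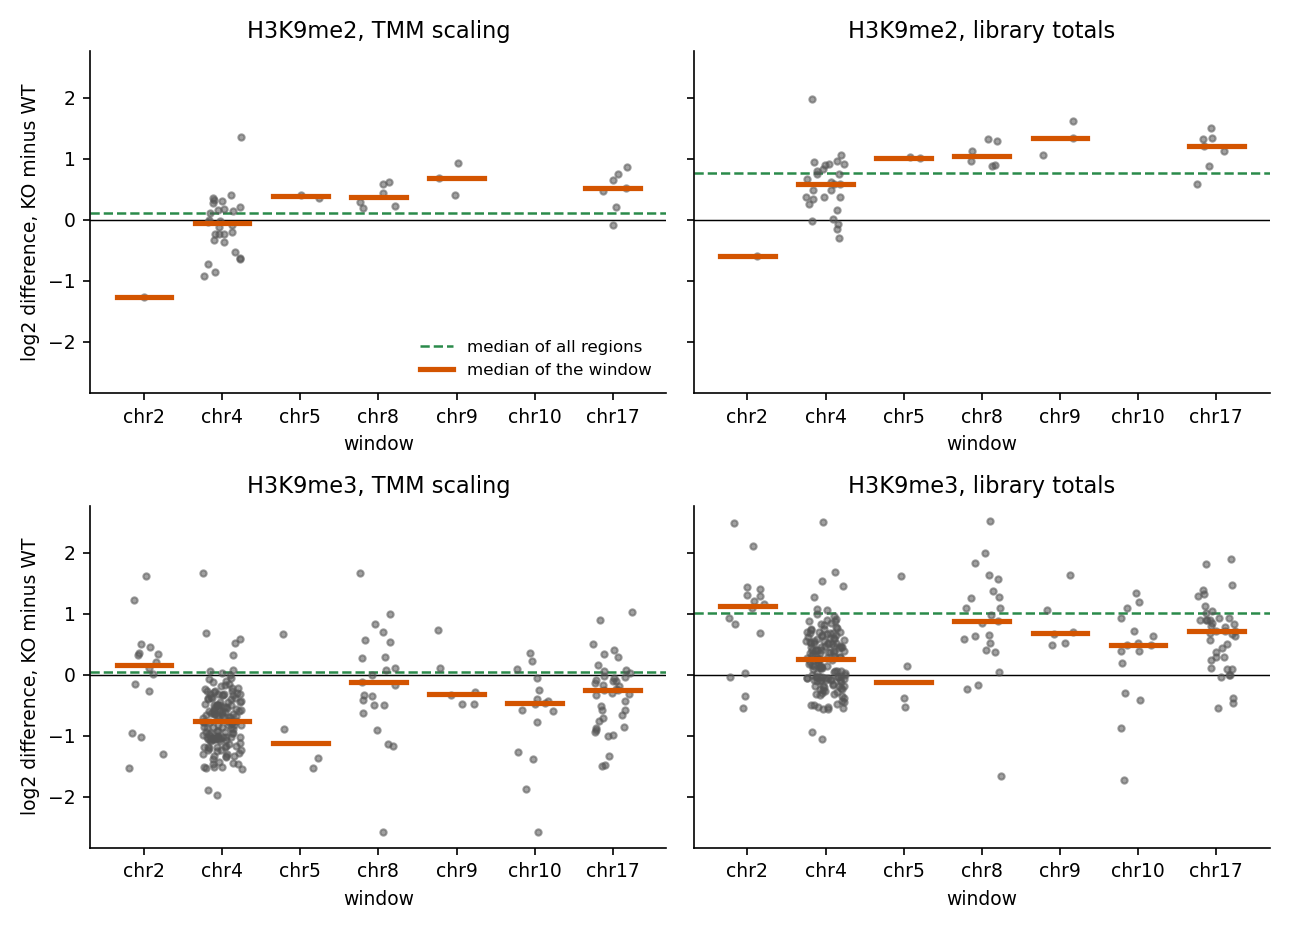
Each point is 1 member, with the log2 difference between KO and WT (KO minus WT) on the vertical axis, by window, H3K9me2 above and H3K9me3 below, with TMM scaling on the left and library totals on the right. The orange bar is the window's median and the green dashed line the median of all regions of the mark, and the median of the chromosome 4 H3K9me3 members lies below that line on both scales, negative with TMM and positive with library totals (-0.76 and 0.25, lines at 0.05 and 1.00).

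Level and difference moved together in the H3K9me3 table as a whole, and the members were among its stronger regions. Of the 260 members, 76 were in the 5% of H3K9me3 regions with the highest mean count and 116 in the next 20%. Within the highest 5%, the TMM median was -0.91 for 68 chromosome 4 members and -0.59 for 649 regions outside the windows, and 100% and 88.0% of them were lower in KO. In the next 20% it was -0.64 for 70 chromosome 4 members, -0.48 for 46 members elsewhere and -0.27 for 2722 regions outside the windows, of which 95.7%, 78.3% and 67.1% were lower. Strong regions outside the windows thus also lay mostly on the lower side with TMM. In the middle 50% it was -0.45 for 14 chromosome 4 members and 0.07 for 7160 outside regions. The part of signal level in the lower TMM values on chromosome 4 was not tested. Regions mainly of repeated words and those mainly of single-copy words had like medians on chromosome 4, -0.77 over 115 and -0.65 over 39 regions.

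**Figure D4:**
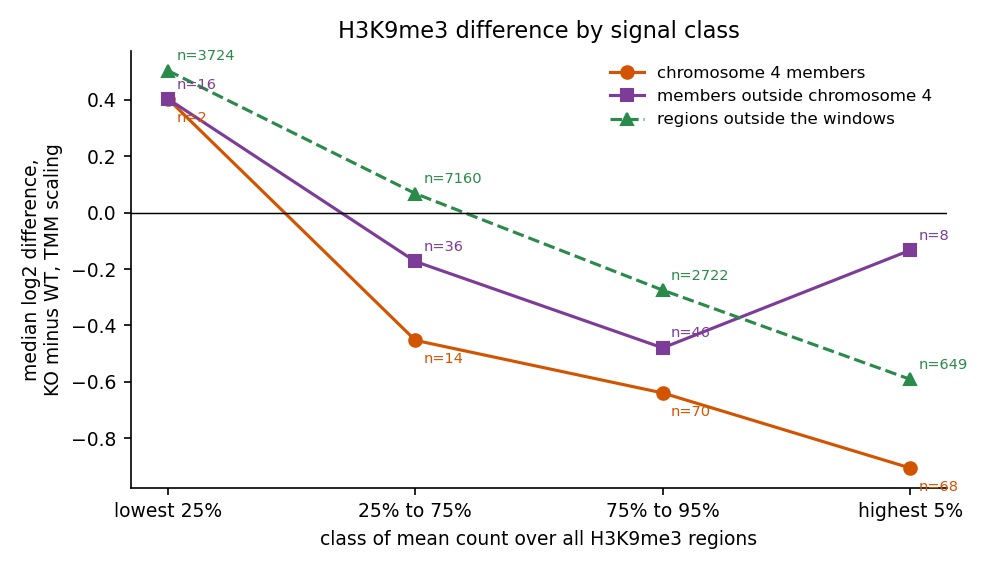
The median log2 difference (KO minus WT, TMM scaling) of H3K9me3 regions is plotted for 4 classes of mean count defined over all H3K9me3 regions, for chromosome 4 members (orange), members in the other windows (purple) and regions outside the windows (green), with the number of regions at each point. The lines for chromosome 4 members and for regions outside the windows fall with each class, to -0.91 and -0.59, while that for the other members turns up to -0.13 over the 8 regions of the highest class. The values are on the TMM scale and not those of library totals, on which the medians are positive.

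Along the chromosome 4 window the H3K9me3 difference varied little from 145.5 Mb on. In steps of 0.5 Mb from 145.5 Mb to 148 Mb the TMM medians were -0.73 over 32 regions, -0.83 over 15, -0.78 over 20, -0.73 over 44 and -0.61 over 32, and with library totals they lay between 0.16 and 0.37. The first 2 steps differed. From 144.5 to 145 Mb there were 4 weak regions and no C2H2 gene, and the TMM median was -0.29. From 145 to 145.5 Mb there were 7 regions with medians of -1.39 with TMM and -0.43 with library totals, where 6 of the 7 were lower in KO on that scale too. Of these regions, 6 lay in Platr16, a noncoding gene with no zinc fingers that was singled out after its values were seen. Platr16 regions held 51.2 and 66.2 RPM in KO and 40.8 and 110 RPM in WT, so that WT library 2 stood far above the other 3 libraries.

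**Figure D5:**
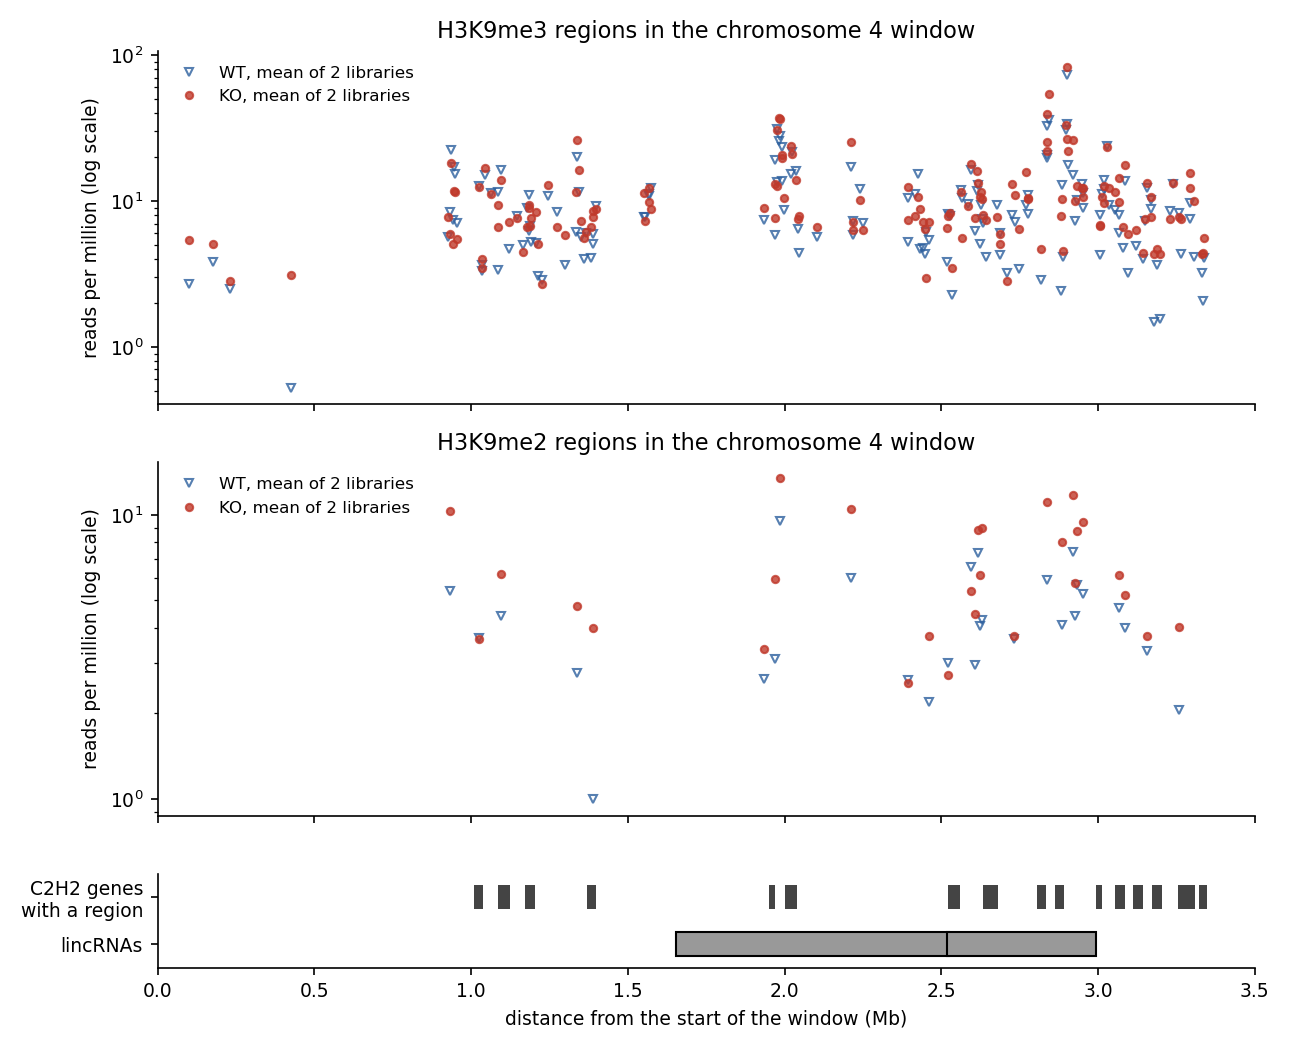
Each point is 1 region of the chromosome 4 window at its distance from the start of the window (Mb, horizontal axis), with its deposited RPM (log scale) as the mean of the 2 KO libraries (red circles) and of the 2 WT libraries (open blue triangles), H3K9me3 above and H3K9me2 in the middle. Bars below mark the 16 C2H2 genes that an H3K9me3 region overlaps and the lincRNAs Gm26573 and C230088H06Rik, and the strongest regions of both marks lie within these lincRNAs.

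Taken gene by gene, 15 of the 16 C2H2 genes with H3K9me3 regions on chromosome 4 had fewer TMM-scaled reads in KO, and in 14 of them both KO libraries were below both WT libraries. Per library total 15 of the 16 had more reads in KO, and both KO libraries were above both WT in 6. Over all H3K9me3 regions, as regions and not genes, both KO libraries were below both WT in 19.1% with TMM and above both in 57.6% with library totals, and 85.4% were higher with library totals. Zfp984, an 11-finger gene, had 189 and 272 H3K9me3 reads in its 5 regions in KO and 182 and 199 in WT. That was 45.0 and 58.8 RPM in KO against 31.3 and 34.9 in WT, with a log2 ratio of 0.65 per library total and -0.37 with TMM. Zfp992, an 11-finger gene chosen after its values were seen, was the lowest of the 16, with 71 and 110 reads in KO against 152 and 130 in WT. Its log2 ratio was -0.27 per library total and -1.29 with TMM, negative on both scales, with the genotypes overlapping per library total and apart with TMM. Zfp534 was the 1 gene not lower with TMM, with 64 and 47 reads in KO against 43 and 28 in WT and log2 ratios of 1.05 and 0.03. Across all windows 32 of 34 genes were lower in KO with TMM and 29 of 34 were higher per library total, and in none were both KO libraries below both WT per library total or above both WT with TMM.

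In the other windows, of the 5 genes with the most H3K9me3 regions, Zfp781 and Zfp160 had negative ratios on both scales, and the other 3 were positive per library total and negative with TMM. Zfp781 on chromosome 10 had 49 and 47 reads in KO against 50 and 86 in WT, with log2 ratios of -0.12 per library total and -1.11 with TMM. Zfp160 on chromosome 17 had 41 and 80 reads in KO against 92 and 83 in WT, with ratios of -0.17 and -1.20. Zfp872 on chromosome 9 had 41 and 61 reads in KO and 46 in each WT library, with ratios of 0.52 and -0.50. For D130040H23Rik on chromosome 8, with 33 and 42 reads in KO against 21 and 38 in WT, they were 0.72 and -0.28, and for Gm14401 on chromosome 2, with 37 and 53 against 33 and 43 reads, 0.62 and -0.40. H3K9me2 over Zfp978 on chromosome 4 came to 34 and 52 reads in KO against 24 and 33 in WT, with ratios of 0.99 and 0.34. These sums carry no test of their own, and no sum over genes or windows was given a p-value.

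Tested region by region with edgeR's quasi-likelihood test on TMM-scaled counts (Benjamini-Hochberg FDR under 0.05 over all regions of the mark), 2 H3K9me3 members fell in KO and 0 rose. Over all H3K9me3 regions 0.971% were called lower and 0.0276% higher, and 2 of 260 members was no more than that background. The first was chr8:69505096-69505444, whose sequence is given above. Its counts were 6 and 10 in KO against 20 and 50 in WT, all low, with KO below WT throughout. The log2 fold change was -2.73 ± 0.66 (SE), with adjusted p = 0.00705 by edgeR. The second was chr4:147065974-147066299 in C230088H06Rik, with counts of 20 and 27 in KO against 31 and 87 in WT, a log2 fold change of -1.94 ± 0.53 (SE) and adjusted p = 0.0334 by edgeR. Per library total its genotypes overlapped. For the chromosome 8 region DESeq2 gave no adjusted p. The second region did not pass with DESeq2 (adjusted p = 0.0532) or with the replicate number as a block (edgeR adjusted p = 0.0887), with log2 fold changes of -1.90 and -1.82. With library totals neither region passed (edgeR adjusted p = 0.144 and 0.243). In both, WT library 2 held more than its partner, and without it neither passed (edgeR adjusted p = 0.793 and 0.788, log2 fold changes of -1.99 and -1.07).

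The number of H3K9me3 members called rested on single libraries. Without WT library 1 it was 33, all lower in KO and 32 of them on chromosome 4, and those 33 included both regions just named. In that fit 2.85% of all H3K9me3 regions were called lower. Without WT library 2 it was 8, of which 7 lay on chromosome 4 and 1 on chromosome 10, and neither of the 2 was among them. In that fit 1.25% of all H3K9me3 regions were called lower. Leaving out KO library 1 or KO library 2 gave 0 members, and 0.0207% and 0.0344% of all H3K9me3 regions called lower. At an unadjusted edgeR p under 0.05 the fit without KO library 1 had 12 members lower and 1 higher, and over all H3K9me3 regions 4.57% lower and 1.37% higher. The fit without KO library 2 had 17 members lower and 1 higher, and over all H3K9me3 regions 4.25% lower and 2.11% higher. With all 4 libraries, 64 H3K9me3 members were lower at that unadjusted edgeR p (52 of them on chromosome 4) and 0 higher, and over all H3K9me3 regions 8.16% were lower and 0.985% higher. DESeq2 gave an adjusted p for 127 of the 260 members and for 1289 of all 14515 H3K9me3 regions. It called 0.482% of all H3K9me3 regions lower, and among them 2 other members, both on chromosome 4 and lower in KO, chr4:146469044-146469769 in an untranslated exon of Zfp992 (61 and 52 reads in KO, 113 and 104 in WT, adjusted p = 0.0313) and chr4:147400743-147401150 in C230088H06Rik (114 and 119 against 210 and 174, adjusted p = 0.0307). By edgeR their adjusted p was 0.0634 and 0.0755. In both regions the libraries of 1 genotype lay close together and the genotypes did not overlap on either scale.

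With all 4 libraries no H3K9me2 member passed edgeR's test with TMM (0 of 47), and 0 had an unadjusted edgeR p under 0.05. Over all H3K9me2 regions 2.02% had such an unadjusted p as higher and 7.21% as lower. The unadjusted count of members changed when WT library 1 was left out. Over all H3K9me2 regions 1.61% were called lower and 0.202% higher by edgeR, and 1.06% lower by DESeq2. DESeq2, with its own size factors, gave an adjusted p for only 2 of the 47 members and called neither, and 0 of the 47 had an unadjusted DESeq2 p under 0.05. With library totals alone edgeR called 2 H3K9me2 members, both higher in KO and both on chromosome 8, and 0 lower, while 5.5% of all H3K9me2 regions were called higher and 0.252% lower. The region chr8:72642770-72643396, the tandem repeat shown above, had 342 and 310 reads in KO against 246 and 229 in WT. As deposited RPM that was 62.1 and 57.4 in KO and 29.3 and 35.4 in WT. The log2 fold change was 0.89 ± 0.26 (SE) and edgeR adjusted p = 0.0146. The second, chr8:71130724-71131252, had 101 and 105 reads in KO against 77 and 39 in WT, a log2 fold change of 1.31 ± 0.38 (SE) and edgeR adjusted p = 0.0146. With TMM the same 2 fold changes were 0.22 and 0.60, and neither passed. Single libraries moved both TMM values. The first was 0.11 without KO library 1 or without WT library 2 and 0.32 without KO library 2, and the second ranged between 0.12 (WT library 2 left out) and 1.13 (WT library 1 left out).

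H3K9me3 behaved alike at one of these places. With library totals alone edgeR called 2 H3K9me3 members higher and 0 lower, against 0.785% and 0.103% of all H3K9me3 regions. The region chr8:71130634-71131140, which overlaps the second H3K9me2 region by 416 bp, had 58 and 72 reads in KO against 30 and 16 in WT. Its log2 fold change was 1.88 ± 0.52 (SE), with edgeR adjusted p = 0.0395. The region chr8:71195114-71195634 had 37 and 57 reads in KO against 17 and 12 in WT, a log2 fold change of 2.06 ± 0.57 (SE) and edgeR adjusted p = 0.0394, and it overlaps an H3K9me2 region by 405 bp. Both lie between genes, nearest to Gm35256 (4.06 kb away) and to the pseudogene Aprt-ps (28.3 kb away). With TMM both were still above 0, at 0.85 and 1.04, and did not pass. Without WT library 2 the first was 0.44 and without WT library 1 it was 1.42.

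The strongest member of each window gives the levels at its upper end. On chromosome 4 the H3K9me3 region chr4:147401190-147402395 joined 5 summits over 1205 bp and had 342 and 390 reads in KO against 443 and 398 in WT, or 81.7 and 84.6 RPM in KO and 76.4 and 70.0 in WT. Its KO libraries were the higher in RPM and the lower with TMM (log2 fold change -0.84 ± 0.36 SE, edgeR adjusted p = 0.365, and 0.00503 without WT library 2). The strongest on chromosome 8 was the tandem repeat chr8:72642790-72643367, with 210 and 193 reads in KO against 150 and 187 in WT, 50.3 and 42.0 RPM against 26.0 and 33.0. In chromosome 17 the strongest was chr17:23294040-23294613, in an intron of the vomeronasal receptor gene Vmn2r114 and not in a C2H2 gene, with 19.3 and 15.6 RPM in KO and 8.6 and 5.62 in WT. On chromosome 9 it was the finger-coding exon of Zfp810, with 34 and 72 reads in KO against 39 and 46 in WT, 8.34 and 15.8 RPM against 6.88 and 8.25. The chromosome 10 region chr10:82375340-82375937, in an intron of Gm4924, had 11.9 and 6.71 RPM in KO and 6.71 and 7.37 in WT, and the genotypes overlapped. On chromosome 5, chr5:109971561-109972302 had 7.15 and 11 RPM in KO and 10.3 and 6.14 in WT and lay 23.2 kb from the lincRNA 1010001B22Rik. On chromosome 2, chr2:174958750-174959079 had 6.91 and 8.44 RPM in KO and 2.07 and 4.74 in WT and lay 51.2 kb from Gm14444. None of these H3K9me3 regions passed the edgeR test with TMM or with library totals.

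Among the H3K9me2 members the strongest on chromosome 4 was chr4:146484832-146485075 in an intron of Gm26573, wholly inside an H3K9me3 region, with 11.6 and 15.3 RPM in KO and 10.1 and 8.93 in WT. On chromosome 17, chr17:23433230-23433758 had 10.5 and 11.4 RPM in KO and 7.6 and 6.93 in WT and lay 7.25 kb from the pseudogene Vmn2r-ps134. The chromosome 5 region chr5:109663141-109663592 had 7.97 and 3.32 RPM in KO and 3.32 and 2.15 in WT, and lay 11 kb from 5430403G16Rik. The chromosome 9 region chr9:20285778-20286058, in a coding exon of the olfactory receptor gene Olfr39, had 5.25 and 4.98 RPM in KO and 2.14 and 1.85 in WT. The only H3K9me2 member on chromosome 2, chr2:175109823-175110128 in the pseudogene Gm14392, had 2.17 and 1.29 RPM in KO and 3.44 and 1.69 in WT, and the genotypes overlapped. The libraries of the 2 genotypes were apart in RPM on chromosomes 4, 9 and 17, and none of these 5 regions passed the edgeR test with TMM or with library totals.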

How the data were processed

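Alignment to mm10 used BWA 0.7.12 on paired-end reads, per the labels and the paper's methods, and the authors called peaks with MACS2 2.1.0, and DiffBind was used for the comparison. The deposited table of each mark holds read counts per region and library, which are not normalized, and RPM values that the authors made as the count plus 1 over 1 total per library. Its fold enrichment, log fold change, p-value and q-value columns hold the authors' own comparison and were not used. Human chromatin served as a spike-in for quantitative comparison, per the paper. How it entered the deposited values, and the duplicate and multi-mapping filters, are not given in the sources used here.

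Exact repeat lines were removed (62 of 2045 for H3K9me2 and 314 of 14829 for H3K9me3). Library totals were recovered from counts and RPM. All regions of a mark were fitted with edgeR 4.0.16 (R 4.3.3; glmQLFit, glmQLFTest, TMM on library totals, no filter, no block), and only members are printed. DESeq2 1.42.0, library totals alone, region totals, a filter, other thresholds, a replicate block and leaving out each library were alternatives. Window sums are RPM of the library total without the added read, with Wilson intervals that cover counting error only, and SDs are over 2 libraries. Coordinates are as deposited, and whether starts count from 0 or 1 is not stated, which moves a start by at most 1 base. Genes are GENCODE M21, and sequences and 31-base words are from RefSeq's GRCm38.p6, the assembly of mm10. C2H2 genes were taken by symbol, and by at least 3 C2H2 matches in the translated coding sequence, a definition added after seeing the data, as were the classes by signal and repetition. Regions named are the strongest member of each window and mark, the members called with TMM (up to 5 a direction) or with library totals (up to 2 a direction), and the C2H2 gene with the most regions in each window. Sequences of other linker-holding and called members were added after their values were seen. The members and lists were chosen with earlier results of these data known.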

Additional observations from a re-analysis of the deposited data

Results flagged for a closer look

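On chromosome 17 the summed reads of the 2 marks lay on opposite sides with TMM, both KO libraries above both WT for H3K9me2 and below both for H3K9me3. The 7 H3K9me2 regions held 30.3 and 33.6 TMM-scaled RPM in KO and 29.8 and 19.6 in WT, a log2 ratio of 0.37. The 41 H3K9me3 regions held 172 and 173 in KO and 236 and 218 in WT, a log2 ratio of -0.40. The H3K9me2 ratio rested on the WT libraries, at 0.10 without WT library 2 and 0.70 without WT library 1, values added after seeing the data with the TMM factors kept. The H3K9me3 ratio lay between -0.45 and -0.34 with any 1 library left out. The ratios differ by 0.768, a difference that was not tested, and with library totals both marks were higher in KO (log2 ratios of 1.07 and 0.62). Outside the windows the H3K9me3 ratio with TMM was -0.36, also with both KO libraries below both WT. The signs were also opposite on chromosomes 5 (0.40 for H3K9me2 and -0.95 for H3K9me3), 8 (0.33 and -0.15) and 9 (0.69 and -0.26). On chromosomes 2 and 4 both ratios were negative with TMM.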

How the results depend on the processing

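With library totals alone the H3K9me3 median was 0.40 and not -0.58, the H3K9me2 median 0.88, and the calls 2 higher for H3K9me3 and 2 higher for H3K9me2. Over all regions, 114 H3K9me2 regions were called in place of 36, and 129 H3K9me3 regions in place of 145. Named regions that turned positive with library totals were chr4:146484832-146485075 (log2 fold change 0.50) and chr17:23433230-23433758 (0.60) for H3K9me2, and chr4:147401190-147402395 (0.18), chr5:109971561-109972302 (0.14), chr8:72642790-72643367 (0.65), chr9:22278537-22279053 (0.68) and chr10:82375340-82375937 (0.40) for H3K9me3. With region totals the H3K9me3 median was -0.23 with 0 members called (58 of all regions), and the log2 ratio of summed reads was -0.34 for H3K9me3 and 0.11 for H3K9me2. Without chromosome 4 the medians were -0.25 and 0.44 and the log2 ratios of summed reads 0.66 and 1.02 for H3K9me3 and H3K9me2. At an FDR of 0.01 and of 0.1, 1 and 9 H3K9me3 members were called (78 and 228 of all regions, and 13 and 53 for H3K9me2). DESeq2 called 70 and 21 of the 1289 and 215 H3K9me3 and H3K9me2 regions to which it gave an adjusted p. Among regions with 2 or more summits, 93.8% of H3K9me2 members overlapped an H3K9me3 region. The cause was not tested.

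Leaving out each library in turn, with a lone library assumed to vary like the other group, gave 0 to 33 H3K9me3 calls, H3K9me3 medians from -0.72 to -0.45 and H3K9me2 medians from 0.0575 to 0.143, against -0.0954 to 0.212 over all H3K9me2 regions. Log2 ratios of summed reads lay between 0.22 and 0.39 for H3K9me3 and between 0.76 and 0.85 for H3K9me2. Named regions that crossed 0 were, for H3K9me2, chr4:146484832-146485075 (-0.514 to 0.0724), chr5:109663141-109663592 (-0.49 to 0.94) and chr17:23433230-23433758 (-0.39 to 0.15), and, for H3K9me3, chr2:174958750-174959079 (-0.26 to 0.90), chr9:22278537-22279053 (-0.82 to 0.0116) and chr17:23294040-23294613 (-0.0331 to 0.701). Over all regions, 0 to 97 were called for H3K9me2 and 3 to 450 for H3K9me3.

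With the replicate number as a block, 1 H3K9me3 member, chr8:69505096-69505444, was called (83 of all regions) and 0 H3K9me2 members, and the medians were -0.57 and 0.22. Libraries with the same number did not deviate together (r of 0.0042 across H3K9me3 and 0.03 across H3K9me2 regions) and came from different embryos, so that they share only a number.

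Counts of 24 to 35 reads in the median member limit what a single region can show.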
